A study of Mus musculus with 16 samples.

Results

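RNA was sequenced from mouse striatum taken 15 d after ATP had been injected into it and was compared with intact striatum. The comparison used 8 of the study's 16 libraries, 4 on each side. At 15 d there were 2 libraries from GS mice and 2 from wild-type (WT) mice, each made after 0.8 µl of 500 mM ATP was given on one side of the brain. Intact striatum also gave 2 GS and 2 WT libraries, and their labels carry no treatment. No vehicle-injected striatum is among the libraries. GS is read here as the LRRK2 G2019S genotype named in the series title, a change that raises the activity of the kinase LRRK2. The sources used here do not state age, sex or strain, or how the Lrrk2 allele was made. The 15 d tissue differs from the intact tissue by the needle, the injected volume, ATP and the time since then, and these cannot be told apart in this comparison. Both genotypes were tested together with genotype as a covariate, and the 8 libraries taken 6 h and 3 d after ATP are used for levels at those stages and for a direct comparison with 3 d.

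ATP is held inside cells, and when damaged cells spill it, purinergic receptors on microglia and astrocytes respond. Microglia, the resident macrophages of the brain, then divide, engulf debris and can take on a state called disease-associated, which depends on the receptor Trem2 and its adaptor Tyrobp. Astrocytes enlarge, build intermediate filaments and help to wall off the damaged tissue. Most striatal neurons are GABAergic projection neurons of the direct pathway (Drd1, Tac1) or the indirect pathway (Drd2, Adora2a, Penk). These are bulk libraries, and their levels are relative to each library's total. A lower level of a cell type's genes can come from fewer cells or from less RNA per cell. It can also come from more RNA of other cells or from the piece of tissue taken. A higher level can come from the opposite, and the measurements cannot tell these apart.

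Total counts ran from 49220578 to 63948110 per library. Principal component 1 took 69.5% of the variance among the 8 libraries and separated the 15 d libraries (scores 30.55 to 57.81) from the intact ones (-51.07 to -39.12). Across genes, which are not independent replicates, replicate libraries of a group had a Pearson r of 0.991 to 0.994, and they still differed beyond counting noise. WT 15 d replicate 1 lay nearest to the intact libraries on that component and GS 15 d replicate 2 farthest. Of the 1366 genes called at least 2-fold higher, 896 had their lowest 15 d level in WT 15 d replicate 1 and 918 their highest in GS 15 d replicate 2. Genes of striatal projection neurons were abundant in every library, as the labelled tissue requires. Cortical genes were uneven: a cortical score, the list's average log2 CPM, was 4.68 in WT 15 d replicate 1 and 3.51 to 4.07 in the other 15 d libraries, against 5.28 in WT intact replicate 1 and 4.16 to 4.54 in the other intact libraries.

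Of 18653 genes tested, 8803 (47.2%) were called at 15 d against intact striatum, at an adjusted p under 0.05 in edgeR's quasi-likelihood test. Of the genes tested, 23.8% were called higher (4444 genes) and 23.4% lower (4359 genes). The numbers were even but the sizes were not: the median log2 fold change was 0.60 over the genes called higher and -0.35 over those called lower, and -0.022 over all genes tested. At least 2-fold, 7.32% of the genes tested were called higher (1366 genes) and 1.65% lower (307 genes). At least 4-fold, 478 genes were called higher and 1 lower, and at least 16-fold, 39 were called higher and 0 lower. All 15 d libraries lay above all intact ones for 4036 of the 18653 genes tested and below them for 3919, so a lack of overlap was common. Without GS 15 d replicate 2, 7252 genes were called, the fewest with 1 library left out. In the GS libraries alone 7084 genes were called, and in the WT libraries alone 3586, of which 63.7% were higher.

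**Figure D1:**
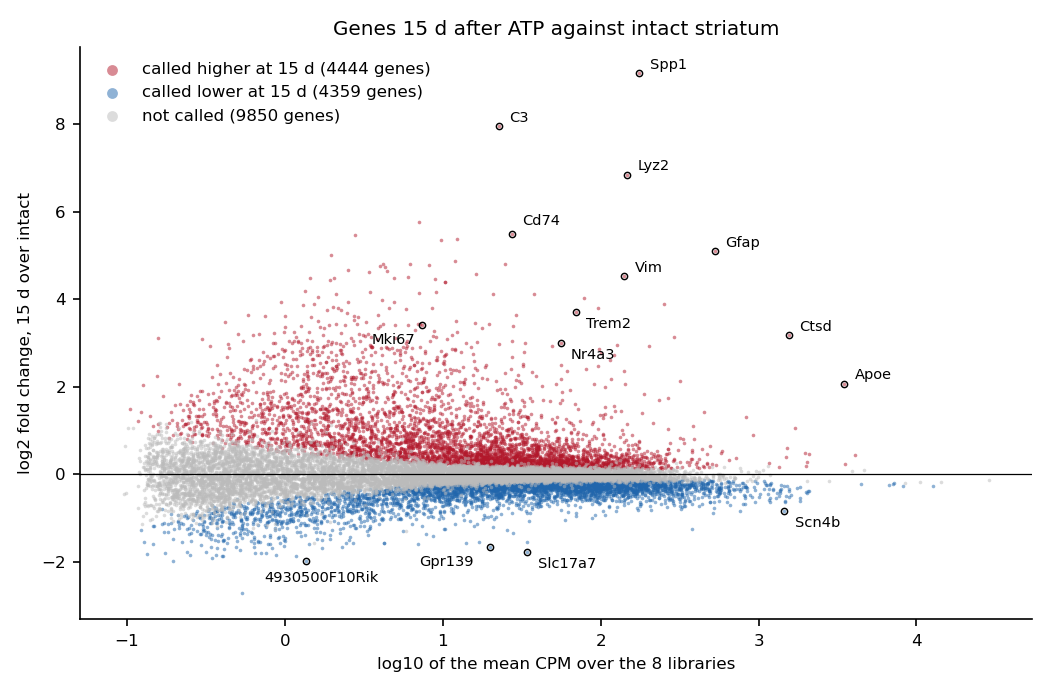
Each point is 1 of the 18653 genes tested, placed by the log10 of its mean CPM over the 8 libraries (horizontal axis) and its log2 fold change at 15 d over intact striatum (vertical axis). The 4444 genes called higher reach 9.17 (Spp1), while 307 of the 4359 genes called lower are past 2-fold.

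Levels are given as CPM, counts scaled to library size, which compares a gene across libraries and not one gene with another. The 4 values of a group stand in the order GS replicate 1, GS replicate 2, WT replicate 1, WT replicate 2, and a value written a ± b is the log2 fold change at 15 d over intact striatum with its standard error. The 12 genes with the largest rise were taken from those of at least 1 CPM on average whose groups do not overlap. They were Spp1, C3, Lyz2, Cd109, Cd74, Msr1, Apoc1, Cd52, Gfap, Fgr, C3ar1 and Cxcl16, and nearly all are known from macrophages, microglia or reactive astrocytes. The lack of overlap of these 12 genes, here and below, was therefore fixed by the choice and is not a result. Spp1, which encodes the secreted phosphoprotein osteopontin, stood at 363, 555, 122 and 366 CPM in the 15 d libraries, against 0.752, 0.599, 0.178 and 0.901 CPM in the intact libraries. Every 15 d library lay far above every intact library, with WT replicate 1 the lowest, and the log2 fold change was 9.17 ± 0.46 (edgeR adjusted p = 4.15e-07). C3, the central complement component, stood at 38, 66.5, 25.2 and 51.1 CPM in the 15 d libraries, against 0.171, 0.325, 0.0712 and 0.15 CPM in the intact libraries, a log2 fold change of 7.96 ± 0.37 (edgeR adjusted p = 2.37e-07). Msr1, a scavenger receptor of macrophages, stood at 5.51, 9.51, 2.76 and 4.09 CPM in the 15 d libraries, against 0.137, 0.12, 0.142 and 0.0751 CPM in the intact libraries. Msr1 remained a gene of low level at 15 d, with a log2 fold change of 5.47 ± 0.31 (edgeR adjusted p = 7.76e-07).

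Promoters are shown for 5 of the named genes, chosen so that each motif searched, all of factors known from glial, myeloid or lysosomal regulation, is seen at least once. The letters are RefSeq sequence of GRCm38.p6, from 250 bases before to 50 bases after the gene's start, 5′ to 3′ on the gene's strand, with matches in capitals. Spp1 (chr5:104434861-104435160, plus strand) holds the IRF core AANNGAAA at 2 places and the PU.1 motif GAGGAAGT at 1. Gfap (chr11:102897151-102897450, minus strand) holds the STAT motif TTCNNNGAA. H2-K1 (chr17:34000298-34000597, minus strand) holds the IRF core. Ctsd (chr7:142387778-142388077, minus strand) holds the E-box CACGTGA bound by Tfeb and its relatives at 2 places, 1 of which matches on both strands. C3ar1 (chr6:122856108-122856407, minus strand) holds the IRF core and the AP-1 motif TGANTCA.
Spp1: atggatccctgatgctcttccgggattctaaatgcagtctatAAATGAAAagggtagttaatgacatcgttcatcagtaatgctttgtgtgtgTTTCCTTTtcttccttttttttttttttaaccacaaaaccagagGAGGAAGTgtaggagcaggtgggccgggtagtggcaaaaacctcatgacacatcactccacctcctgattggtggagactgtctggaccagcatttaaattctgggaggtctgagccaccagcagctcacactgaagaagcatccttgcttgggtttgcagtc
Gfap: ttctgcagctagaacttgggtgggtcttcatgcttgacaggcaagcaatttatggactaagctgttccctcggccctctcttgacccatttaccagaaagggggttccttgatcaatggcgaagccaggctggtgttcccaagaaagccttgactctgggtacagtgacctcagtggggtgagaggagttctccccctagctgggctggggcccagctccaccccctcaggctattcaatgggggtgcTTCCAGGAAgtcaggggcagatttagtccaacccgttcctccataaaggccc
H2-K1: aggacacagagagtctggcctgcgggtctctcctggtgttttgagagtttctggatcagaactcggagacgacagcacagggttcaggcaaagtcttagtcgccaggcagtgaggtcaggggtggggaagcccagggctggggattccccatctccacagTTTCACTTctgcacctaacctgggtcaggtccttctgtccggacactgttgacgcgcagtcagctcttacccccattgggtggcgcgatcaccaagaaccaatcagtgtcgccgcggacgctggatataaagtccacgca
Ctsd: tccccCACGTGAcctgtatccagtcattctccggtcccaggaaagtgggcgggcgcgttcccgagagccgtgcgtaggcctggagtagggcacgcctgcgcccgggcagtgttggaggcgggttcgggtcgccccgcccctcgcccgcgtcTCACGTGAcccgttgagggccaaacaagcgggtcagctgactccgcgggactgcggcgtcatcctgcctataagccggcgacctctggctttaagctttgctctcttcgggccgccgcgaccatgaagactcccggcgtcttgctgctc
C3ar1: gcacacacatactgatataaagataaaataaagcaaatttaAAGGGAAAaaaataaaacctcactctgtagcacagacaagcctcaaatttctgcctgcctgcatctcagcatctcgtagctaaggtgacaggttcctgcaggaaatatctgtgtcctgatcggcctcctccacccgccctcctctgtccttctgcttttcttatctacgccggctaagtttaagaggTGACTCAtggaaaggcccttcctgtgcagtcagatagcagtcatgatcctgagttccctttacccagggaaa
Such windows were in hand for 1018 of the 1366 genes called at least 2-fold higher, 190 of the 307 called at least 2-fold lower and 13256 of all 18653 tested, and both strands were searched. The IRF core was in 28.8% of the windows of the higher genes, 25.3% of those of the lower genes and 22.0% of all. For PU.1 the shares were 6.88%, 1.58% and 3.42% in the same order, for AP-1 9.92%, 8.95% and 6.43%, for STAT 9.23%, 7.89% and 8.29%, and for the E-box 4.42%, 4.74% and 6.29%. A match in these letters is a description of the window and not a bound site.

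Microglial genes rose together at 15 d. Of the 21 disease-associated microglia genes tested, 20 were called higher, 17 of them at least 2-fold, against 23.8% and 7.32% over all genes. Their median log2 fold change was 2.07, against -0.022 over all genes tested. This list and those below were chosen with earlier results of these data known, so their counts and medians are descriptions and not tests. Trem2, the lipid-sensing receptor of microglia, stood at 130, 178, 70.9 and 138 CPM in the 15 d libraries, against 9.42, 9.3, 11 and 8.94 CPM in the intact libraries. The groups do not overlap, WT replicate 1 was the lowest and GS replicate 2 the highest of the 15 d libraries, and the log2 fold change was 3.72 ± 0.22 (edgeR adjusted p = 8.05e-07). Tyrobp, the signalling adaptor of Trem2, changed by 4.03 ± 0.23, the chemokine gene Ccl6 by 4.79 ± 0.22 and the cholesterol hydroxylase gene Ch25h by 4.78 ± 0.29. Lyz2, which encodes lysozyme of macrophages and microglia, stood at 286, 470, 127 and 281 CPM in the 15 d libraries, against 2.62, 2.24, 2.62 and 2.29 CPM in the intact libraries. Here too every 15 d library lay far above every intact one, with a log2 fold change of 6.85 ± 0.32 (edgeR adjusted p = 2.37e-07). Apoe, the lipid carrier of the brain, was among the most counted of these genes, at 5530, 7540, 3450 and 6160 CPM in the 15 d libraries, against 1410, 1320, 1270 and 1340 CPM in the intact libraries, a log2 fold change of 2.07 ± 0.17. Lpl, a lipase gene on the same list that neurons also express, was at 0.06 and was not called. WT 15 d replicate 1 was the lowest 15 d library for all 20 genes called and GS 15 d replicate 2 the highest for 19. Without WT 15 d replicate 1 the count of 20 was unchanged and the median was 2.28. Cst7, Itgax, Clec7a and Gpnmb of this list were not in the table and are not analysed here.

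Homeostatic microglia genes, which are high in resting microglia, were also higher. Of 13 tested, 12 were called higher, 7 of them at least 2-fold, and 0 lower, with a median of 1.03. P2ry12, the ADP receptor of resting microglia, stood at 88.8, 99.4, 70.4 and 79 CPM in the 15 d libraries, against 49.7, 44.4, 50.8 and 47.8 CPM in the intact libraries. The 15 d libraries all lay above the intact ones, by a fold of 1.74, at 0.80 ± 0.08 (edgeR adjusted p = 2.13e-05). Tmem119, a membrane protein of microglia, changed by 0.58 ± 0.10, the fractalkine receptor gene Cx3cr1 by 1.45 ± 0.12 and the growth factor receptor gene Csf1r, on which microglia depend, by 1.69 ± 0.14. The largest change on the list was that of Fcrls, a scavenger-receptor gene of mouse microglia, at 3.42 ± 0.26. WT 15 d replicate 1 was the lowest 15 d library for all 12.

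Genes that mark other myeloid cells were mixed. Of 9 border-associated macrophage genes tested, with a median of 0.21, 3 were called higher, against 23.8% of all genes: Siglec1, which interferon also induces, at 4.73 ± 0.35, the transcription factor gene Maf at 1.00 ± 0.09 and the scavenger receptor gene Stab1 at 0.45 ± 0.17. The defining markers Mrc1 (0.21), Cd163 (-0.29), Lyve1 (-0.54), F13a1 (-0.35) and Pf4 (0.27) were not called, and the summed level of the list was 31.9 to 56.1 CPM at 15 d, against 24.0 to 25.8 CPM in intact striatum. The Stab1 call was weak: it was lost in limma-voom, with a replicate block (adjusted p = 0.0523 in edgeR), with the cortical covariate (0.23, adjusted p = 0.416) and without any 1 of 6 libraries, those other than WT intact replicate 1 and WT 15 d replicate 1. Of 8 genes of infiltrating monocytes and macrophages, 7 were called higher, among them Lyz2, the calcium-binding protein gene S100a4 (4.15 ± 0.27) and the matrix glycoprotein gene Thbs1 (2.56 ± 0.40). Microglia or astrocytes also express Lyz2, S100a6, Fn1 and Vcan, and Ly6c2, the defining monocyte marker measured, was at -0.45 and was not called. Lymphocyte and neutrophil markers were almost all outside the table, among them Cd3e, S100a8 and S100a9. Of 5 T cell genes tested, 1 was called higher, against 23.8% of all genes. It was Trac, at 0.95 ± 0.32, which stood at 0.275 to 0.536 CPM at 15 d and 0.113 to 0.291 CPM in intact striatum. The Trac call was lost in DESeq2 (adjusted p = 0.0771), in each genotype alone and without WT intact replicate 2, GS intact replicate 1, WT 15 d replicate 1 or GS 15 d replicate 1. Cd4 and Thy1, which the intact striatum expresses, were called lower. The part of other myeloid cells in the rise of shared macrophage genes was not tested.

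Complement and Fc receptor genes, which tag and bind targets for engulfment, were also higher. Of 22 complement genes tested, 19 were called higher, 15 of them at least 2-fold, with a median of 2.05, and Cd59a, which protects cells from the membrane attack complex, was called lower at -0.41 ± 0.09. C1qa, a subunit of the C1q initiator, stood at 381, 480, 213 and 363 CPM in the 15 d libraries, against 46.6, 50.9, 41.9 and 46.2 CPM in the intact libraries. C1qb and C1qc, the other subunits, changed by 2.77 ± 0.15 and 2.85 ± 0.17, close to the 2.93 ± 0.16 of C1qa. Further along the cascade, C4b changed by 3.80 ± 0.24, and the receptors for C3a and C5a, C3ar1 and C5ar1, changed by 4.87 ± 0.30 and 2.51 ± 0.39. Serping1, the C1 inhibitor, changed by 3.10 ± 0.17. All 13 genes of Fc receptors and ITAM signalling were called higher, each at least 2-fold, with a median of 2.32. Fcer1g, the shared signalling chain of Fc receptors, changed by 3.02 ± 0.21, the inhibitory receptor gene Fcgr2b by 3.04 ± 0.24 and the kinase gene Syk by 1.93 ± 0.21.

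All 31 lysosomal genes tested were called higher, 20 of them at least 2-fold, with a median of 1.32. Ctsd, the aspartic protease cathepsin D, stood at 2850, 4010, 1370 and 2960 CPM in the 15 d libraries, against 313, 323, 282 and 284 CPM in the intact libraries. Even WT replicate 1, the lowest at 15 d, lay far above every intact library, and the log2 fold change was 3.19 ± 0.22 (edgeR adjusted p = 1.66e-06). The other large changes were those of the cysteine protease genes Ctss (3.14 ± 0.20) and Ctsh (3.01 ± 0.20), and of Cd68, a membrane protein of phagocyte lysosomes (2.93 ± 0.23). Genes that most cells use changed less: Lamp1, a lysosomal membrane protein gene, was at 0.80 ± 0.09 and the saposin precursor gene Psap at 0.26 ± 0.06. WT 15 d replicate 1 was the lowest 15 d library for 30 of the 31. In the WT libraries alone 27 of the 31 were called higher.

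**Figure D2:**
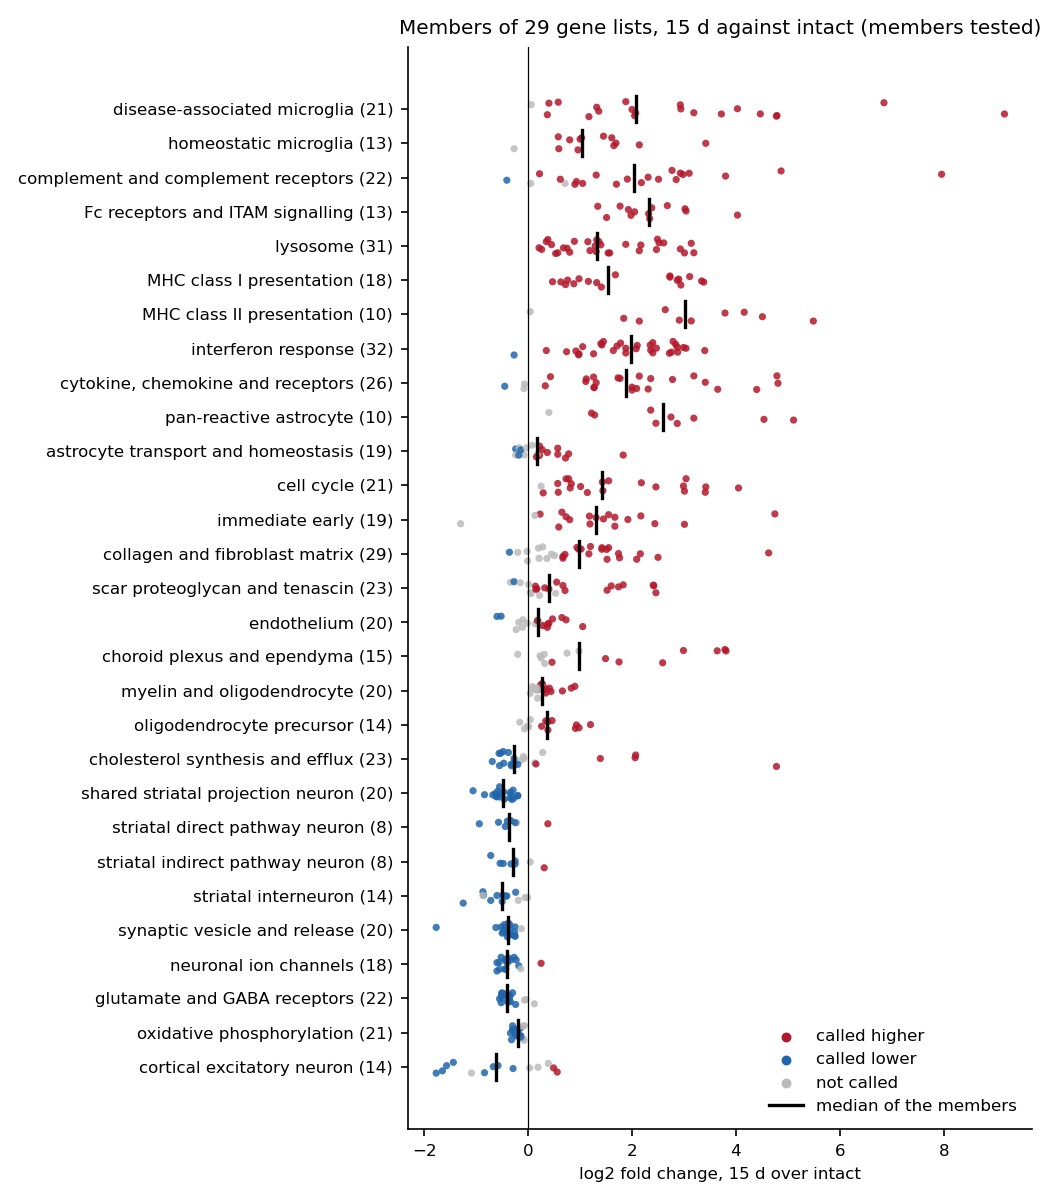
Each point is a gene placed by its log2 fold change at 15 d over intact striatum (horizontal axis), in 29 lists with the number tested in brackets, coloured by call, and the bar is the median of the members. Myeloid, presentation and astrocyte lists lie to the right with medians up to 3.03, while neuronal lists lie close together left of 0.

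Antigen presentation genes rose in both classes. All 18 genes of class I presentation were called higher, 12 at least 2-fold, with a median of 1.55. H2-K1, a class I heavy chain, stood at 43.4, 62.1, 46 and 51.4 CPM in the 15 d libraries, against 5.39, 4.81, 3.94 and 5.45 CPM in the intact libraries. The 15 d libraries lay within a narrow range well above the intact ones, and the log2 fold change was 3.38 ± 0.13 (edgeR adjusted p = 1.16e-07). B2m, the shared light chain, changed by 2.94 ± 0.12, and Psmb8, an immunoproteasome subunit gene, by 3.11 ± 0.19. Reads of class I genes can be shared between near-identical copies, so the value of H2-K1 alone is uncertain. Of 10 class II genes tested, 9 were called higher, all at least 2-fold, with a median of 3.03. Cd74, the invariant chain, stood at 42.8, 43.5, 88.9 and 39.5 CPM in the 15 d libraries, against 1.28, 1.18, 1.58 and 0.601 CPM in the intact libraries. H2-Aa, a class II heavy chain, stood at 8.89, 6.83, 22 and 8.3 CPM in the 15 d libraries, against 0.684, 0.359, 0.481 and 0.394 CPM in the intact libraries. In both genes WT 15 d replicate 1, which was lowest for microglial genes, was the highest by a wide margin, and no 15 d library overlapped with an intact one. The list as a whole did not share this order. Across the 9 genes called higher, GS 15 d replicate 2 was the highest 15 d library for 6. WT 15 d replicate 1 was highest for 3 of them and lowest for 5. Without that library 9 of 10 were still called higher. The log2 fold changes were 5.49 ± 0.31 (edgeR adjusted p = 7.03e-07) for Cd74 and 4.51 ± 0.37 (edgeR adjusted p = 4.3e-06) for H2-Aa.

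Interferon response genes were higher too, with another order of the libraries. Of 32 tested, 31 were called higher, 26 at least 2-fold, and 1 lower, Stat2 at -0.27 ± 0.07, with a median of 1.98. The Stat2 call was lost in the WT libraries alone (-0.20, edgeR adjusted p = 0.21) and with the cortical covariate (-0.23, edgeR adjusted p = 0.0702). Ifit3, an interferon-induced antiviral protein, stood at 5.51, 8.47, 8.82 and 15.9 CPM in the 15 d libraries, against 2.07, 1.66, 1.67 and 1.31 CPM in the intact libraries. Irf7, a transcription factor that amplifies the interferon response, stood at 1.9, 4.49, 2.44 and 5.74 CPM in the 15 d libraries, against 0.804, 0.582, 0.57 and 0.244 CPM in the intact libraries. WT replicate 2 was the highest and GS replicate 1 the lowest 15 d library for both, and the groups did not overlap. The same held across the list: WT 15 d replicate 2 was highest for 21 of the 31 genes called higher and GS 15 d replicate 1 lowest for 24. The log2 fold change was 2.47 ± 0.27 (edgeR adjusted p = 3.2e-05) for Ifit3 and 2.72 ± 0.40 (edgeR adjusted p = 0.000233) for Irf7. Guanylate-binding protein gene Gbp2 changed by 2.88 ± 0.19 and Lgals3bp, which encodes a secreted galectin-binding protein, by 2.99 ± 0.22.

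Of 26 cytokine, chemokine and receptor genes tested, 23 were called higher, 21 at least 2-fold, with a median of 1.88. Ligands among them were Cxcl16 (4.81 ± 0.33), Ccl6 and Ccl9 (3.19 ± 0.14) and the receptor antagonist gene Il1rn (3.65 ± 0.28). Receptors included the toll-like receptor genes Tlr2 (4.40 ± 0.26) and Tlr4 (2.14 ± 0.22) and the chemokine receptor gene Cxcr4 (3.41 ± 0.22). Cx3cl1, the neuronal ligand of Cx3cr1, was the 1 member called lower, at -0.45 ± 0.06. Cxcl12 (-0.07) and Il18 (-0.08) were not called. Il1b, Tnf, Il6, Ccl2 and Cxcl10 were not in the table and are not analysed here. Cxcl16 and Itgad overlap other genes, and their values are uncertain because the sources used here do not state strand use.

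Reactive astrocyte genes remained high at 15 d. Of 10 pan-reactive genes tested, 9 were called higher, all at least 2-fold, with a median of 2.61. Gfap, the intermediate filament of astrocytes whose promoter is shown above, stood at 1030, 1230, 656 and 1200 CPM in the 15 d libraries, against 31.2, 27.7, 27.2 and 32.8 CPM in the intact libraries. Vim, a second intermediate filament, stood at 264, 389, 154 and 278 CPM in the 15 d libraries, against 13.8, 11.1, 10.2 and 11 CPM in the intact libraries. Both genes separated the groups fully, with WT replicate 1 lowest at 15 d, at log2 fold changes of 5.11 ± 0.19 (edgeR adjusted p = 1.04e-07) and 4.54 ± 0.20 (edgeR adjusted p = 2.37e-07). Serpina3n, a serine protease inhibitor, stood at 238, 290, 158 and 253 CPM in the 15 d libraries, against 45.4, 43.2, 45.6 and 47.3 CPM in the intact libraries, and Osmr, the oncostatin M receptor, changed by 2.87 ± 0.16. Lcn2, an iron-binding secreted protein of acute astrocyte reaction, was the member not called, at 3.8, 3.44, 1.09 and 1.12 CPM in the 15 d libraries, against 2.29, 2.98, 0.338 and 1.45 CPM in the intact libraries. Without WT intact replicate 2 it was called, at 0.79. Its 15 d and intact levels overlapped, and both were higher in GS than in WT libraries.

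Of the 11 tested members of a set named A1, 8 were called higher and 2 lower, Fbln5 and Fkbp5, with a median of 2.36. Of all genes tested, 23.8% were called higher and 23.4% lower. The largest changes were those of Ggta1 (3.16 ± 0.18), Psmb8 and Serping1, and 3 of the 4 largest also stand on the presentation, complement or interferon lists. Of 9 members of a set named A2, 7 were called higher, led by Cd109 (5.76 ± 0.32) and Emp1 (2.84 ± 0.20), with a median of 1.46, and Ptgs2 (-0.24) was not called. Of 19 genes of astrocyte transport and homeostasis 10 were called higher and 3 lower, against 23.8% and 23.4% of all genes tested, with a median of 0.18. The count called lower was 3 in the GS libraries alone and 0 in the WT libraries alone. It was 0 without WT 15 d replicate 1 and 1 with the cortical covariate. Aqp4, the water channel of astrocyte endfeet, stood at 297, 337, 230 and 312 CPM in the 15 d libraries, against 80.7, 74.9, 88.7 and 87.3 CPM in the intact libraries, a change of 1.83 ± 0.11 (edgeR adjusted p = 7.76e-07) that was the only one of the 19 past 2-fold. The transcription factor gene Sox9 changed by 0.78 ± 0.07 and the gap junction gene Gja1 by 0.72 ± 0.05. The glutamate transporter gene Slc1a3 changed by 0.37 ± 0.05.

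Cell cycle genes were still above intact levels. Of 21 tested, 20 were called higher, 13 at least 2-fold, with a median of 1.43. Mki67, a marker of dividing cells, stood at 13, 14.5, 11.6 and 14.8 CPM in the 15 d libraries, against 0.906, 1.33, 0.641 and 2.22 CPM in the intact libraries. The 15 d libraries were close together and well above every intact library, and the log2 fold change was 3.41 ± 0.27 (edgeR adjusted p = 3.86e-06). Cdk1, the mitotic kinase, changed by 4.05 ± 0.31, and Top2a, the DNA topoisomerase of dividing cells, by 3.42 ± 0.23. Mcm5, a subunit of the replicative helicase, was at 0.25 and was not called.

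Immediate early genes, which cells switch on within minutes of a stimulus, were high at 15 d. Of 19 tested, 17 were called higher, 12 at least 2-fold, and 0 lower, with a median of 1.31. Nr4a3, a nuclear receptor induced by activity, stood at 90.8, 100, 101 and 105 CPM in the 15 d libraries, against 7.88, 14, 13.5 and 14.2 CPM in the intact libraries. Fos, a subunit of AP-1, stood at 35.2, 33.8, 37.1 and 33.9 CPM in the 15 d libraries, against 4.87, 10.2, 8.26 and 14.3 CPM in the intact libraries. Across the 15 d libraries both genes varied little, unlike the microglial genes, and every 15 d library lay above every intact one. The log2 fold changes were 3.01 ± 0.14 (edgeR adjusted p = 2.37e-07) and 1.92 ± 0.22 (edgeR adjusted p = 3.38e-05). Atf3, a stress-induced transcription factor gene, stood at 7.83, 10.6, 4.82 and 7.83 CPM in the 15 d libraries, against 0.427, 0.239, 0.356 and 0.113 CPM in the intact libraries and here followed the order of the microglial genes, with WT replicate 1 lowest. The partner genes Fosl2 and Junb changed by 2.17 ± 0.13 and 1.19 ± 0.11, and the neuronal activity gene Npas4 by 0.65 ± 0.15. Nr4a2 (-1.30) and Egr3 (0.13) were not called, and Nr4a2 was called lower in the GS libraries alone and without WT intact replicate 2 or WT 15 d replicate 1.

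**Figure D3:**
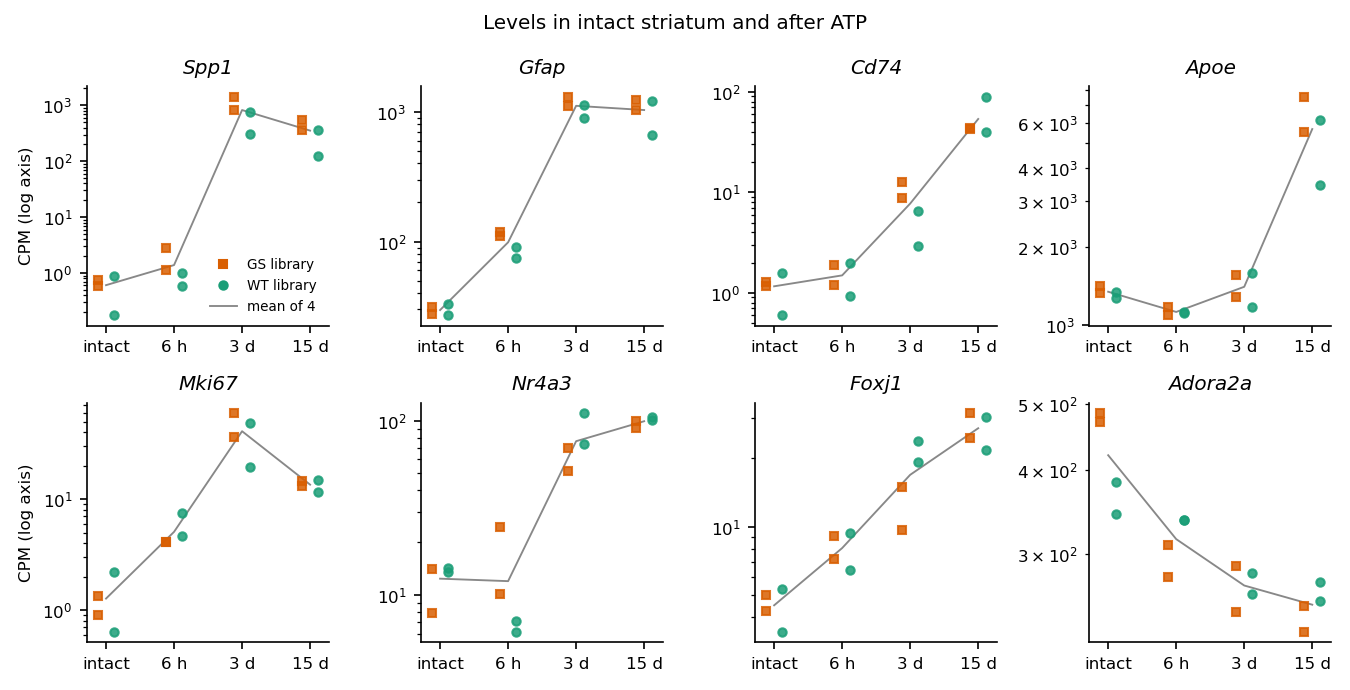
CPM on a log axis for 8 genes in intact striatum and 6 h, 3 d and 15 d after ATP, with squares for GS libraries, circles for WT libraries and a line through the mean of 4. Cd74 and Apoe are highest at 15 d, Mki67 is highest at 3 d, and the 15 d and 3 d levels of Nr4a3 and Gfap overlap.

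Matrix genes rose in part. Of 29 collagen and fibroblast matrix genes tested, 19 were called higher, 14 at least 2-fold, and Fbn1 lower, with a median of 0.97. Lox, the enzyme that crosslinks collagen, stood at 6.5, 9.6, 3.83 and 6.2 CPM in the 15 d libraries, against 0.188, 0.376, 0.249 and 0.225 CPM in the intact libraries. No 15 d level overlapped with an intact one, and the log2 fold change was 4.63 ± 0.26 (edgeR adjusted p = 7.76e-07). Col3a1, a fibrillar collagen, stood at 12.5, 17.9, 5.99 and 8.83 CPM in the 15 d libraries, against 2.31, 1.69, 2.1 and 1.46 CPM in the intact libraries, also without overlap, at 2.50 ± 0.23, and Col1a1 and Col1a2 changed by 1.20 ± 0.14 and 1.76 ± 0.16. The basement membrane collagens Col4a2 (-0.20) and Col4a1 (0.21, called without either WT library high in cortical genes) and the fibroblast and mural cell receptors Pdgfra (-0.01) and Pdgfrb (-0.02) were not called. Of 23 scar proteoglycan and tenascin genes, 15 were called higher, 7 at least 2-fold. Fmod, the small proteoglycan fibromodulin that binds collagen, stood at 8.82, 11.6, 6.7 and 10.8 CPM in the 15 d libraries, against 2.27, 2.21, 1.18 and 1.54 CPM in the intact libraries, a change of 2.42 ± 0.19, and the glial scar genes Cd44 and Tnc changed by 2.46 ± 0.13 and 1.83 ± 0.15. The perineuronal net genes Acan (-0.34), Bcan (0.06) and Tnr (0.01) were not called. Of 18 metalloproteinase and inhibitor genes 12 were called higher, with Mmp19 (3.75 ± 0.30), Mmp2 (2.61 ± 0.28) and Mmp14 (1.11 ± 0.09) past 2-fold. The receptor genes Tgfbr1 and Tgfbr2 changed by 1.61 ± 0.14 and 2.23 ± 0.14 and the ligand gene Tgfb1 by 2.31 ± 0.20, among 9 of 19 TGF-beta genes called higher and 3 lower, with a median of 0.24, against 23.8% and 23.4% of all genes. Of 23 growth factor genes 14 were called higher and 4 lower, against 23.8% and 23.4% of all genes, with a median of 0.36. Among them Grn (2.61 ± 0.19), Cntf (1.97 ± 0.28) and Igf1 (1.17 ± 0.24) were called higher and Vegfa lower, at -0.53 ± 0.06. The Igf1 call was lost in the WT libraries alone (0.52, edgeR adjusted p = 0.115).

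Vessel genes moved little. Of 20 endothelial genes 9 were called higher and 2 lower, against 23.8% and 23.4% of all genes tested, with a median of 0.19. Pecam1 (0.14), Cdh5 (0.34) and Cldn5 (-0.18), which define the endothelium and its junctions, were not called. In the GS libraries alone Cldn5 was called lower, at -0.60 (edgeR adjusted p = 0.00853). Cdh5 was called higher without WT 15 d replicate 1 (0.44) or without GS 15 d replicate 2 (0.48). Slc16a1, a lactate transporter that glia also express, changed by 1.05 ± 0.09, and Mfsd2a, the lipid transporter of barrier endothelium, was called lower at -0.60 ± 0.13. Of 13 pericyte and smooth muscle genes 3 were called higher and 1 lower, a share higher that is near the background of 23.8%, with a median of 0.11, and Rgs5 (0.13) and Pdgfrb were not called. Without GS 15 d replicate 2 Rgs5 was called higher, at 0.23. Haemoglobin genes, which show blood in the tissue, were not called: Hba-a1 stood at 0.739, 3.78, 1.42 and 1.22 CPM in the 15 d libraries, against 1.47, 1.97, 1.5 and 0.807 CPM in the intact libraries, and the groups overlapped. Its reads can be shared with the near-identical Hba-a2. Hmox1, which degrades haem, changed by 1.76 ± 0.16, and the iron storage gene Ftl1 by 1.11 ± 0.10.

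Genes of ependymal cells, the ciliated lining of the ventricle beside the striatum, were higher, while choroid plexus genes depended on the libraries used. Of 15 genes on the joint list 8 were called higher, 7 at least 2-fold, against 23.8% and 7.32% of all genes tested, with a median of 0.98. In the GS libraries alone 7 were called higher and 1 lower (median 0.48), and in the WT libraries alone 14 were called higher (median 2.09). Without both WT libraries that stand high in cortical genes the counts were 8 and 1 and the median was 0.55. Foxj1, which drives the formation of motile cilia, stood at 24.5, 31.5, 21.8 and 30.5 CPM in the 15 d libraries, against 4.99, 4.26, 3.45 and 5.29 CPM in the intact libraries. The groups do not overlap, and the log2 fold change was 2.59 ± 0.15 (edgeR adjusted p = 8.05e-07). Dnah12, a motor protein of cilia, stood at 6.69, 9.6, 10.3 and 7.22 CPM in the 15 d libraries, against 0.462, 0.359, 0.285 and 1.39 CPM in the intact libraries, at 3.81 ± 0.36 (edgeR adjusted p = 1.09e-05). The cilia genes Tmem212, Ccdc153 and Dynlrb2 changed by 3.79 ± 0.50, 3.64 ± 0.40 and 2.99 ± 0.49. Ttr, the transthyretin of choroid plexus, stood at 139, 34.4, 149 and 227 CPM in the 15 d libraries, against 359, 56.9, 27.6 and 72 CPM in the intact libraries. Its groups overlapped over nearly their whole range and it was not called, and neither were Kl (0.23), Clic6 (-0.20) and Folr1 (0.98). Otx2, a transcription factor gene of choroid plexus, was called higher at 1.49 ± 0.37. In the WT libraries alone Ttr (1.92), Kl (1.28) and Folr1 (2.37) were called higher in edgeR, and without GS intact replicate 1, the library high in Ttr, so were Ttr (1.38) and Folr1 (2.39) in both genotypes together. Foxj1 changed by 2.61 ± 0.15 in GS and 2.59 ± 0.23 in WT, and for Ttr the difference between genotypes was not called (edgeR adjusted p = 0.794). The part of ventricular lining taken with the striatum was not tested.

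Oligodendrocyte genes rose by small amounts. Of 20 myelin and oligodendrocyte genes 12 were called higher and 0 lower, with a median of 0.28, and 0 of them reached 2-fold. Mbp, the myelin basic protein, stood at 4920, 4340, 4420 and 5210 CPM in the 15 d libraries, against 3440, 3740, 3310 and 3470 CPM in the intact libraries. All 15 d levels lay above the intact ones, and the log2 fold change was 0.44 ± 0.08 (edgeR adjusted p = 0.000635). Of 14 precursor genes 9 were called higher and 0 lower, with a median of 0.36. Enpp6, a gene of oligodendrocytes that have just begun to differentiate, stood at 20.3, 23, 18.6 and 20.9 CPM in the 15 d libraries, against 11, 9.06, 11.9 and 10.1 CPM in the intact libraries, at 0.98 ± 0.10. Gpr17, a receptor of the same stage, changed by 0.91 ± 0.08, C1ql1 by 0.93 ± 0.14 and Matn4 by 1.20 ± 0.15. The defining precursor genes Pdgfra and Cspg4 (0.04) and the lineage factors Olig1 (-0.07) and Olig2 (-0.16) were not called. Cspg4 was called higher without WT 15 d replicate 1 (0.21) and without both WT libraries high in cortical genes (0.23). Olig2 was called lower without GS intact replicate 2 (-0.23) and with the cortical covariate (-0.28).

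Genes of cholesterol synthesis and efflux were mostly lower. Of 23 tested 13 were called lower, against 23.4% of all genes tested. The 5 called higher are a share near the background of 23.8%, and 4 of them were at least 2-fold higher, against 7.32%. Abca1, which exports cholesterol to apolipoproteins, stood at 220, 279, 185 and 231 CPM in the 15 d libraries, against 56.6, 49.6, 56.3 and 55.7 CPM in the intact libraries. All 15 d libraries lay above every intact one, at 2.06 ± 0.10 (edgeR adjusted p = 4.15e-07). Soat1, which makes cholesterol esters for storage, changed by 1.39 ± 0.10, and Apoe and Ch25h are given above. The synthesis genes Hmgcs1 and Idi1 changed by -0.33 ± 0.05 and -0.38 ± 0.07 and the feedback regulator Insig1 by -0.56 ± 0.05. Cyp46a1, the cholesterol hydroxylase of neurons, was called lower at -0.55 ± 0.07, together with the neuronal genes described next.

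Striatal neuron genes were lower at 15 d by small amounts. All 20 genes shared by both kinds of projection neuron were called lower, against 23.4% of all genes tested, and 1 of them was at least 2-fold lower, against 1.65%. Their median log2 fold change was -0.49, and their summed level was 14600 to 16100 CPM at 15 d, against 19100 to 24100 CPM in intact striatum. With GS libraries alone 19 were called lower (median -0.63), and with WT libraries alone 12 (median -0.36). Scn4b, a sodium channel subunit, stood at 951, 998, 1180 and 1060 CPM in the 15 d libraries, against 1990, 2210, 1670 and 1660 CPM in the intact libraries. The 4 libraries at 15 d lay close together and below every intact library, at -0.84 ± 0.10 (edgeR adjusted p = 5.91e-05). Ppp1r1b, which encodes the dopamine signalling protein DARPP-32, changed by -0.55 ± 0.07, and the phosphodiesterase gene Pde10a by -0.61 ± 0.09. The 2-fold member was the phosphatase gene Ptpn7 (-1.06 ± 0.14), whose reads can be shared with an overlapping gene.

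Both pathways were lower. Adora2a, the adenosine receptor of indirect pathway neurons, stood at 231, 252, 273 and 256 CPM in the 15 d libraries, against 470, 484, 344 and 384 CPM in the intact libraries. Drd1, the dopamine receptor of direct pathway neurons, stood at 196, 203, 226 and 185 CPM in the 15 d libraries, against 260, 289, 244 and 276 CPM in the intact libraries. The groups do not overlap for either gene, and the intact GS libraries were above the intact WT libraries for Adora2a. The log2 fold changes were -0.72 ± 0.10 (edgeR adjusted p = 0.00012) for Adora2a and -0.40 ± 0.07 (edgeR adjusted p = 0.000997) for Drd1. Penk, the enkephalin precursor of the indirect pathway, stood at 954, 1010, 962 and 933 CPM in the 15 d libraries, against 1370, 1610, 1230 and 1410 CPM in the intact libraries, at -0.54 ± 0.07, and Tac1, the substance P precursor of the direct pathway, changed by -0.44 ± 0.09. In each list of 8, 6 genes were called lower and 1 higher, against 23.4% and 23.8% of all genes tested. Those called higher were the dynorphin precursor Pdyn at 0.38 ± 0.09 and the adenosine kinase Adk, which astrocytes also express, at 0.31 ± 0.06. The Pdyn call was lost in the WT libraries alone (0.15, edgeR adjusted p = 0.265) and with the cortical covariate (0.29, edgeR adjusted p = 0.0619). In the GS libraries alone 7 and 6 were called lower, and in the WT libraries alone 2 in each list.

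Interneuron genes were lower as well: 10 of 14 were called lower and 0 higher, with a median of -0.50. Chat, of cholinergic interneurons, changed by -0.60 ± 0.08, the neuropeptide genes Sst and Npy by -0.41 ± 0.06 and -0.50 ± 0.06 and the calcium-binding protein gene Pvalb by -0.86 ± 0.23. Synaptic genes followed, with 19 of 20 called lower and a median of -0.38. In the GS libraries alone 20 were called lower (median -0.44), and in the WT libraries alone 10 (median -0.32). Unc13a, which primes synaptic vesicles, stood at 295, 302, 270 and 280 CPM in the 15 d libraries, against 454, 489, 408 and 418 CPM in the intact libraries, with no overlap and a log2 fold change of -0.62 ± 0.05 (edgeR adjusted p = 3.4e-06). Snap25 of the fusion complex changed by -0.46 ± 0.07 and the calcium sensor gene Syt1 by -0.34 ± 0.07. Of 22 glutamate and GABA receptor genes 18 were called lower, of 18 ion channel genes 16, and of 13 neurofilament and cytoskeleton genes 9. The NMDA receptor gene Grin1 changed by -0.52 ± 0.06, the GABA receptor gene Gabra4 by -0.55 ± 0.08, the potassium channel gene Kcna2 by -0.60 ± 0.08 and the neurofilament gene Nefm by -0.82 ± 0.09. Dpysl3, which is linked to axon growth, was called higher at 0.75 ± 0.07.

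Cortical excitatory genes were uneven among replicates, and 8 of 14 were called lower and 2 higher, against 23.4% and 23.8% of all genes tested. Slc17a7, the vesicular glutamate transporter of cortical neurons, stood at 12.5, 4.47, 35 and 10.5 CPM in the 15 d libraries, against 30.3, 30.4, 136 and 15.6 CPM in the intact libraries. WT replicate 1 was the highest library in both groups and the groups overlapped. Its call at -1.77 ± 0.56 (edgeR adjusted p = 0.0215) was lost without WT intact replicate 1, at -0.96 with an edgeR adjusted p of 0.194, and also without WT 15 d replicate 2 or GS 15 d replicate 2. Without that library Neurod6 (edgeR adjusted p = 0.239), Neurod2 (0.219) and Tbr1 (0.152) also lost their calls. With the cortical score as a covariate, 18 of the 20 shared projection neuron genes, 15 of 20 synaptic genes, 17 of 22 receptor genes and 13 of 18 channel genes were still called lower. Without both WT libraries that stand high in cortical genes the counts were 20, 20, 18 and 17. In GS the cortical score itself was lower at 15 d (4.07 and 3.51, against 4.45 and 4.54 in intact striatum). In WT it was 4.68 and 3.88 at 15 d, against 5.28 and 4.16 in intact striatum. The covariate therefore overlaps with stage and cannot fully separate cortical content from it. Of 21 genes of oxidative phosphorylation, 16 were called lower and 0 higher, with a median of -0.20. Cycs, the electron carrier cytochrome c, stood at 86.6, 79.4, 86.4 and 78.7 CPM in the 15 d libraries, against 98.9, 109, 108 and 105 CPM in the intact libraries, at -0.34 ± 0.05 (edgeR adjusted p = 0.000318). With the cortical covariate 11 of the 21 were called lower, and without both of those libraries 12. The GS libraries alone gave 16 called lower (median -0.27), and the WT libraries alone 3 (median -0.12).

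**Figure D4:**
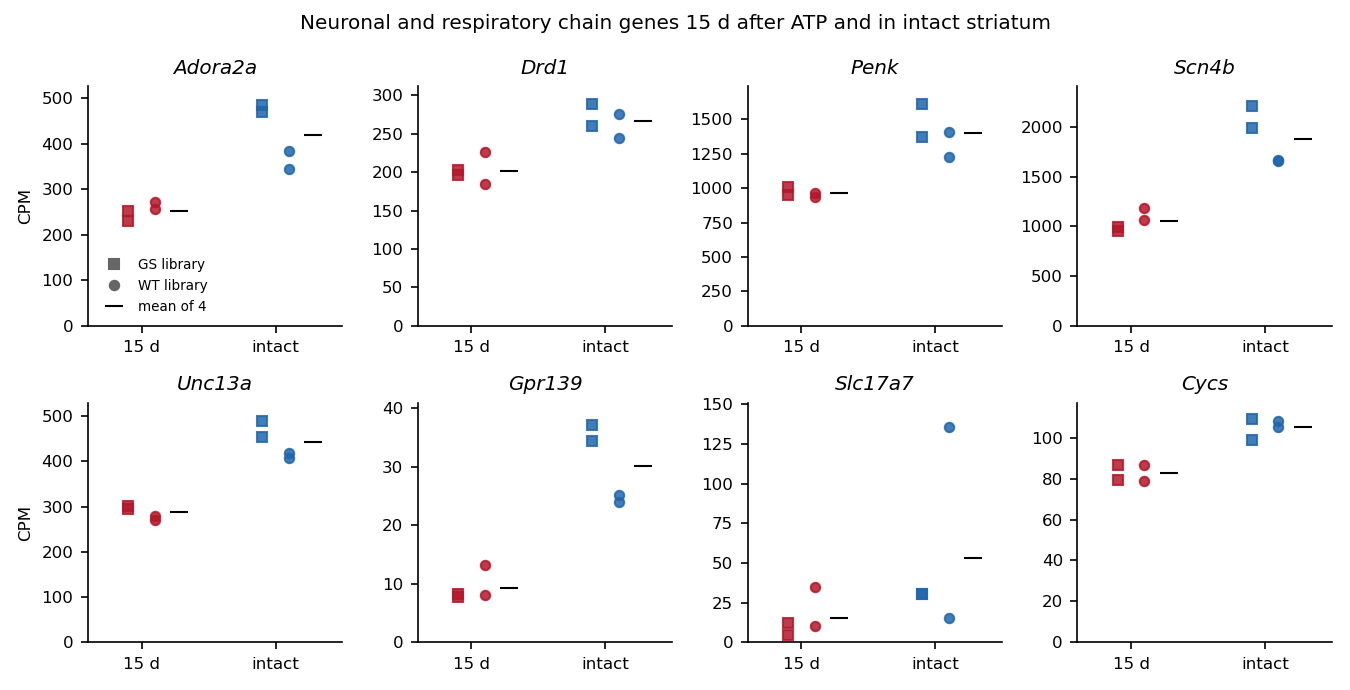
CPM of 8 genes at 15 d (left, red) and in intact striatum (right, blue), with squares for GS libraries, circles for WT libraries and a bar at the mean of 4, on axes that start at 0. The groups are apart for Adora2a, Drd1, Penk, Scn4b, Unc13a, Gpr139 (chosen for it) and Cycs, with 15 d below, as for 3919 of the 18653 genes tested. Those of Slc17a7 overlap, with WT replicate 1 highest in each (136 CPM among the intact libraries).

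The 12 genes with the largest fall, among genes of at least 1 CPM whose groups do not overlap, were 4930500F10Rik, Gjd3, LOC115488899, Gpr139, Gm40369, Gm17769, Fgf3, Mamstr, Kirrel2, Robo3, Plin4 and Sstr3. They share no list, and most are of low level. The largest was that of 4930500F10Rik, at 0.458, 0.505, 0.586 and 0.629 CPM in the 15 d libraries, against 2.56, 1.71, 2.39 and 2.01 CPM in the intact libraries, a log2 fold change of -1.99 ± 0.20 (edgeR adjusted p = 1.71e-05). Gpr139, an orphan receptor of striatal and habenular neurons, stood at 8.31, 7.69, 13.3 and 8.12 CPM in the 15 d libraries, against 34.4, 37.2, 24 and 25.2 CPM in the intact libraries. The log2 fold change of Gpr139 was -1.67 ± 0.19 (edgeR adjusted p = 3.89e-05). Kirrel2, an adhesion molecule of the immunoglobulin family, stood at 8.43, 7.17, 6.25 and 6.51 CPM in the 15 d libraries, against 17.3, 28.6, 19.3 and 18.6 CPM in the intact libraries, at -1.56 ± 0.14 (edgeR adjusted p = 6.18e-06). Gm40369 stood at 0.194, 4.76, 4.47 and 4.68 CPM in the 15 d libraries, against 12.3, 11, 9.58 and 8.81 CPM in the intact libraries. The GS replicate 1 value of 0.194 stands apart, and Gm40369 overlaps Rn4.5s, so its change of -1.60 ± 0.51 (edgeR adjusted p = 0.0242) is uncertain, and its call was lost in DESeq2 and without GS intact replicate 1. Robo3, an axon guidance receptor, changed by -1.55 ± 0.18, and Plin4, a lipid droplet coat protein, by -1.54 ± 0.27, with reads that can be shared with Hdgfl2.

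Lrrk2 itself, on chromosome 15 (91672791 to 91816124 in GRCm38.p6), was lower at 15 d. It stood at 123, 113, 112 and 110 CPM in the 15 d libraries, against 168, 217, 135 and 163 CPM in the intact libraries. Every 15 d library was below every intact library, at -0.57 ± 0.09 (edgeR adjusted p = 0.000529). The change was -0.70 ± 0.11 in the GS libraries and -0.42 ± 0.10 in the WT libraries, and the difference between them was -0.30 ± 0.17 (edgeR adjusted p = 0.828). Counts per gene do not separate the G2019S transcript from the normal one. Its paralogue Lrrk1 was called higher at 1.36 ± 0.18, as was Rab29, a small GTPase that binds LRRK2, at 1.10 ± 0.16. Of the 24 genes tested on the list of LRRK2 and Parkinson disease genes 4 were called higher and 6 lower, against 23.8% and 23.4% of all genes tested. Park7 (-0.01), Pink1 (0.12) and the LRRK2 substrate Rab10 (0.07) were not called.

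Among 19 purinergic genes, which sense or degrade ATP and adenosine, 11 were called higher and 4 lower, against 23.8% and 23.4% of all genes, with a median of 0.52. P2ry6, a UDP receptor linked to engulfment by microglia, stood at 11.8, 14.6, 7.3 and 11.4 CPM in the 15 d libraries, against 2.22, 1.83, 2.28 and 1.56 CPM in the intact libraries. Each 15 d library was above each intact one, and the log2 fold change was 2.49 ± 0.18 (edgeR adjusted p = 2.33e-06). The ATP receptor genes P2ry2, P2rx7 and P2rx4 changed by 2.07 ± 0.30, 1.15 ± 0.13 and 1.02 ± 0.13. Nt5e, which makes adenosine from AMP, was called lower at -0.74 ± 0.09, with Adora2a. Entpd1 (-0.03) and P2ry1 (0.08) were not called. Of 14 stress and heat shock genes 9 were called higher and 2 lower, against 23.8% and 23.4% of all genes, with a median of 0.44. Hspa1a, an inducible heat shock chaperone with the largest change of the list, stood at 62.1, 53.2, 21.8 and 53.3 CPM in the 15 d libraries, against 13.8, 16.3, 6.61 and 7.47 CPM in the intact libraries, a change of 2.16 ± 0.23, and its reads can be shared with Hspa1b. The members called lower were the chaperone genes Hsp90aa1 (-0.29 ± 0.07) and Hsph1 (-0.26 ± 0.09), and the Hsph1 call was lost without any 1 of 5 libraries, WT intact replicate 2, GS intact replicate 2, WT 15 d replicate 1 or either GS 15 d library.

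The size of the 15 d change was compared between genotypes by the interaction of genotype and stage. No gene passed: 0 of 18653 (0.0%) were called in edgeR, with a smallest adjusted p of 0.794, and 1153 had an unadjusted p under 0.05. DESeq2 called 18, all with a GS change below the WT change, limma-voom called 0, and without GS 15 d replicate 2 edgeR called 1. The genes with the smallest p were Syndig1, Nipal3, Fam222a, Snrpn and Inafm1. Syndig1, which encodes a synaptic AMPA receptor-associated protein, stood at 41.3, 40.4, 49.5 and 45.2 CPM in the 15 d libraries, against 68.4, 70.3, 55.3 and 54.8 CPM in the intact libraries. It changed by -0.75 ± 0.06 in GS and -0.21 ± 0.08 in WT, a difference of -0.56 ± 0.09 (unadjusted p = 0.000147, edgeR adjusted p = 0.794). Fam222a stood at 18, 18.5, 21.3 and 22.9 CPM in the 15 d libraries, against 25, 26.8, 18.4 and 20 CPM in the intact libraries. It was at -0.49 ± 0.09 in GS and 0.21 ± 0.10 in WT, and its difference of -0.71 ± 0.13 was not called either (edgeR adjusted p = 0.794). A p that misses the threshold does not show that the genotypes responded alike, and both libraries high in cortical genes are WT.

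Set directly against 3 d, 8.28% of 18646 genes were called at 15 d, 4.51% higher (841 genes) and 3.76% lower (702 genes). This count rested on few libraries: it was 528 without WT 15 d replicate 2, 545 without GS 15 d replicate 2 and 665 without GS 15 d replicate 1. It was 861 without GS 3 d replicate 1, 998 without GS 3 d replicate 2 and 1012 without WT 3 d replicate 1. Cell cycle genes were lower at 15 d than at 3 d, with 19 of 21 called lower and a median of -1.15, and Mki67 stood at 13, 14.5, 11.6 and 14.8 CPM at 15 d, against 36, 59.2, 19.4 and 49 CPM at 3 d, a log2 fold change of -1.58 ± 0.26 (edgeR adjusted p = 0.00729). Class II genes were higher, with 9 of 10 called higher, 1 lower and a median of 1.03. Cd74 was at 42.8, 43.5, 88.9 and 39.5 CPM at 15 d, against 8.7, 12.7, 2.91 and 6.56 CPM at 3 d, a log2 fold change of 2.86 ± 0.39 (edgeR adjusted p = 0.00401). Of 21 disease-associated microglia genes 12 were called higher and 0 lower, among them Apoe (2.01 ± 0.19), Lyz2 (1.86 ± 0.31) and Ccl6 (2.49 ± 0.19). Spp1 was at -1.19 ± 0.35 (edgeR adjusted p = 0.0596) and was not called. The largest changes upward among named genes were those of Apoc1, at 17.9, 34.2, 12.9 and 32.2 CPM at 15 d, against 2.74, 2.62, 1.59 and 1.96 CPM at 3 d (3.47 ± 0.30), Itgad (3.08 ± 0.32), Cd74 and Lag3, an immune checkpoint receptor gene, at 70.4, 95.2, 45 and 74.7 CPM at 15 d, against 13.1, 13.1, 6.31 and 10.9 CPM at 3 d (2.73 ± 0.19). Downward they were those of Msr1 (-2.73 ± 0.26) and Lcn2 (-2.66 ± 0.67). Gfap (-0.10 ± 0.16) and Vim (0.05 ± 0.22) were not called, and of 32 interferon genes 1 was called higher and 1 lower. Of 29 collagen and matrix genes 9 were called higher and 1 lower, with Fmod at 2.34 ± 0.19 and Lox at 1.89 ± 0.22, and of 14 oligodendrocyte precursor genes 5 were called higher and 0 lower. Of the 20 shared projection neuron genes 5 were called lower and 0 higher.

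**Figure D5:**
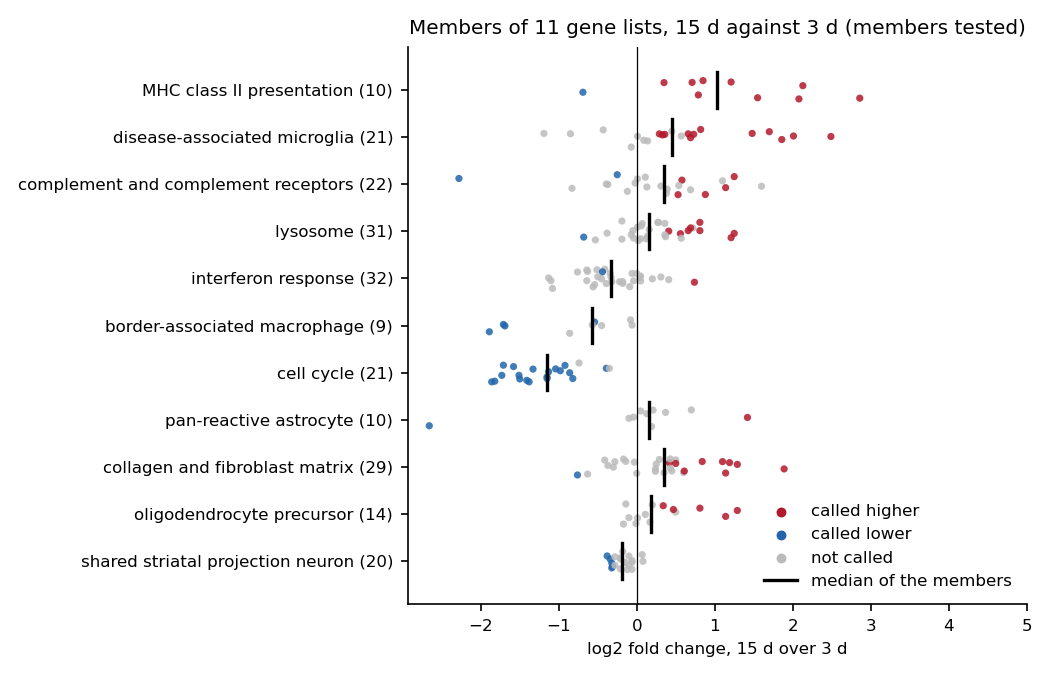
Each point is a gene placed by its log2 fold change at 15 d over 3 d (horizontal axis), in 11 lists with the number tested in brackets, coloured by call, with a bar at the median of the members. The class II list lies to the right with a median of 1.03 and the cell cycle list to the left with a median of -1.15.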

How the data were processed

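Striatal RNA was isolated with RNeasy and prepared for sequencing with TruSeq, per the labels' protocols. The deposited file holds the authors' raw read counts for 19457 genes in 16 libraries. The submitters' processing notes name FastQC 0.11.7 and the build mm10; the aligner, counter and strand setting were not given in the sources used here. Columns named NT were taken as WT by elimination. The lowest count in the table is 1, so genes silent in a library are not analysed here. Depth was 49220578 to 63948110 counts per library. Because replicates differed beyond counting noise, the spread between them limits precision more than depth does. The labels call the replicates biological.

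Counts were tested in R 4.3.3 with edgeR 4.0.16 (filterByExpr, TMM, glmQLFit and glmQLFTest, genotype as covariate) on the 8 libraries of each comparison, with Benjamini-Hochberg adjustment over all genes tested and an adjusted p under 0.05 as the threshold. Standard errors are the absolute log2 fold change over the square root of the F statistic, so they are approximate. CPM use TMM factors over all 16 libraries. The fits were tested on simulated data. Gene positions and promoters are from RefSeq tables of GRCm38.p6, matched by Gene ID for 19406 genes. The 48 lists hold 810 genes, of which 726 are in the table, and a gene can stand on several. They are described by counts and medians without a set test. The genes named were Lrrk2, the 12 largest changes in each direction (mean of at least 1 CPM, groups not overlapping), up to 4 called members per list with the largest change (the first 2 measured where fewer than 2 were called), the 6 largest in each direction against 3 d and the 5 with the smallest interaction p. Other list members are given to show a list's range and were chosen after their values were seen, and they were refitted under the same alternatives. Many named genes overlap other genes, so reads can be shared. Besides those marked above, they include Chat, P2ry12, P2rx4, P2rx7, Col4a1, Col4a2, Cd74, B2m, Unc13a, Snap25, Nefm, Gabra4, Ppp1r1b, Pde10a, Mbp, Gpr17 and Matn4. Others are Stab1, Cd163, Stat2, Cx3cl1, Il18, Mmp2, Mmp19, Tnr, Pdgfra, Olig2, Entpd1, Lrrk1, Rab10, Snrpn, Nipal3 and Inafm1. The members and lists were chosen with earlier results of these data known. The alternatives tried were other filters, DESeq2 1.42.0, RLE size factors, voom with limma 3.58.1, all 16 libraries, a replicate block, a cortical covariate, each genotype alone, each library left out, no genotype term, a 1.5-fold threshold and an adjusted p under 0.01.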

Additional observations from a re-analysis of the deposited data

Results flagged for a closer look

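The levels printed by library were examined for a library far from the other 3 of its group, by Dixon's gap divided by the group's range, in 51 genes and 102 groups of 4. Chance alone flags about 1 group in 20, and 9 were found. At 15 d, WT replicate 1 stood high for Cd74 at 88.9 CPM (gap over range 0.918), for H2-Aa at 22.0 CPM (0.864) and for Gpr139 at 13.3 CPM (0.89), and GS replicate 1 stood low for Gm40369 at 0.194 CPM (0.937). Among intact libraries, GS replicate 1 stood low for Nr4a3 at 7.88 CPM (0.884) and high for Ttr at 359 CPM (0.866), GS replicate 2 stood low for Abca1 at 49.6 CPM (0.875), WT replicate 1 stood high for Slc17a7 at 136 CPM (0.877), and WT replicate 2 stood high for Dnah12 at 1.39 CPM (0.84).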

How the results depend on the processing

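No gene called in either comparison changed direction in any setting. For 15 d against intact striatum, the count of 8803 was 7084 in the GS libraries alone, 3586 in the WT libraries alone, a fit of the same size, and 1575 with a 1.5-fold threshold (87.1% of them higher, against 50.5%). It was 7252 to 8633 with 1 library left out, 6226 with the cortical covariate and 8435 with a replicate block. For 15 d against 3 d, the count of 1543 was 2478 in DESeq2, 2601 with all 16 libraries in the fit, 2496 with a replicate block, 3004 with the cortical covariate, 454 in the GS libraries alone, 5 in the WT libraries alone, 38 with a 1.5-fold threshold and 334 at an adjusted p under 0.01. It was 528 to 1522 with 1 library left out. The interaction count of 0 was 18 in DESeq2, 0 to 1 with 1 library left out and 0 with a replicate block. The fold and p thresholds are stricter by construction; for the other settings, the genotypes alone included, the cause was not tested. Deviations of same-numbered libraries correlated at 0.00252 in GS and 0.0732 in WT for 15 d and intact striatum, and at 0.0356 in GS and 0.171 in WT for 15 d and 3 d, so the numbers were not taken to pair the samples. Of 284 named genes, 242 were called at 15 d against intact striatum, and 150 of these kept their call in every setting of that comparison. The cortical covariate removed 16 calls and the WT libraries alone 36. Among those 36 were Igf1 (0.52 in WT alone), Tmem119 (0.45), Cd59a (-0.26), Mfsd2a (-0.48), Pvalb (-0.88), Drd1 (-0.34) and Tac1 (-0.34). Of the 42 not called, 18 were called in at least 1 other setting. Among these were Mcm5 (0.35), Bcan (0.14) and Pink1 (0.17) without WT 15 d replicate 1. Egr3 was called without WT intact replicate 2 (0.22) and Clic6 in the GS libraries alone (-0.30). Calls of named genes against 3 d were not followed through the settings gene by gene. Genes silent in any library are not analysed here.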
